A study of Capra hircus with 36 samples.

Results

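The miRNAs described here are those the study placed in its Conserved class, meaning that their mature sequences match a miRNA listed for another mammal in miRBase but none listed for goat, and whose precursor carries a number over 1200. Precursors from miR-2284 to miR-2490 and from miR-3956 to miR-3959 were left out. The members were also selected on the counts themselves, since the largest raw count in any of the 36 libraries had to be at least 50. Of 1391 mature miRNAs, 66 met these conditions. They came from 51 precursor names, 31 of them as 5p arms and 35 as 3p arms. Because the largest count chose the members, detection and level in the libraries are given as a description.

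A miRNA is trimmed from a hairpin precursor, and either strand of the hairpin stem, the 5p or the 3p arm, can be loaded into an Argonaute protein. The loaded strand pairs with messenger RNAs mainly through its seed near the 5′ end, and the paired messages are translated less or broken down. Precursor numbers follow the order of registration, so a high number marks a miRNA that entered the database late, often from deep sequencing and often at a low read level.

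Small RNA was sequenced from spleen, lung, liver, kidney, heart and the longissimus muscle of 6 adult females listed as over 3 years old. The high-altitude group was 3 Tibetan Goats living at 3000 m and the low-altitude group was 3 Chuandong White Goats living at 600 m, so breed and altitude cannot be told apart. Each of the 12 combinations of tissue and altitude is called a group here and holds 3 libraries. They are named by population and by the number 1 to 3 in their labels, which is taken as the goat. Total counts per library ran from 7108635 to 14407748 with a median of 10419740.5. Levels are given as RPM, the reads of a miRNA per 1000000 counts in its library, and 3 reads, taken as the most that a count of 0 allows, correspond to 0.208 to 0.422 RPM. These limits cover counting error only. Bulk tissue was sequenced, in which fewer cells of a type and less RNA per cell cannot be told apart.

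The tissue labels were checked with miRNAs known from those tissues. The liver miRNA miR-122-5p lay between 6118 and 179917 RPM in the liver libraries and reached at most 208 RPM elsewhere. miR-208b-3p, encoded within a heart myosin gene, had at least 10283 RPM in heart against at most 3445 RPM elsewhere. The leukocyte miRNA miR-142-3p had 3491 to 4883 RPM in spleen and at most 602 RPM elsewhere, and miR-34c-5p, known from ciliated cells, had 1914 to 10181 RPM in lung and at most 44.5 RPM elsewhere. miR-206-3p, a skeletal muscle miRNA, had 45.9 to 7759 RPM in muscle and at most 8.72 RPM elsewhere. Several listed markers had their highest mean in the labelled tissue but overlapped other tissues. In muscle, miR-133a-3p had at least 178996 RPM beside 186399 RPM in low-altitude heart 3, and miR-1-3p, also known from heart, had a median of 1231 RPM beside 21613 RPM there. In spleen, miR-142-5p had at least 7168 RPM beside 21863 RPM in high-altitude liver 1, and miR-150-5p at least 1690 RPM beside 1863 RPM in high-altitude lung 2. In kidney, miR-10b-5p and miR-204-5p had their highest means but also overlapped other tissues, and miR-196a-5p was highest on average in muscle. Of 3 listed erythroid miRNAs, only miR-144-5p was found under its name, with 82.96 to 210.1 RPM in 5 spleen libraries and 0 in high-altitude spleen 1. By the markers that separated the tissues, no library of heart, liver, lung, muscle or spleen went against its label.

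Most members were sparse. At least 1 read was counted in a median of 14.5 of the 36 libraries per member. A total of 6 members were read in all 36 libraries, 13 in 30 to 35, 23 in 10 to 29, 10 in 4 to 9, 9 in 2 or 3, and 5 in 1 library. Together the members held 0.213% of all counts, and 0.0578% once miR-6119-5p, which alone made up 72.9% of the members' counts, was set aside. The number of members read per library ran from 23 in high-altitude spleen 1 to 43 in low-altitude spleen 1, with a median of 32. By tissue, the number was 34.8 ± 1.47 (SD, n = 6) in liver and 28.5 ± 3.94 (SD, n = 6) in heart. The liver totals ran from 7108635 to 9205957 and the heart totals from 10779449 to 12390408. Of the members, 31 reached 50 reads in 1 tissue alone. The numbers by tissue are therefore bound to the minimum, and no difference between tissues is read from them.

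**Figure D1:**
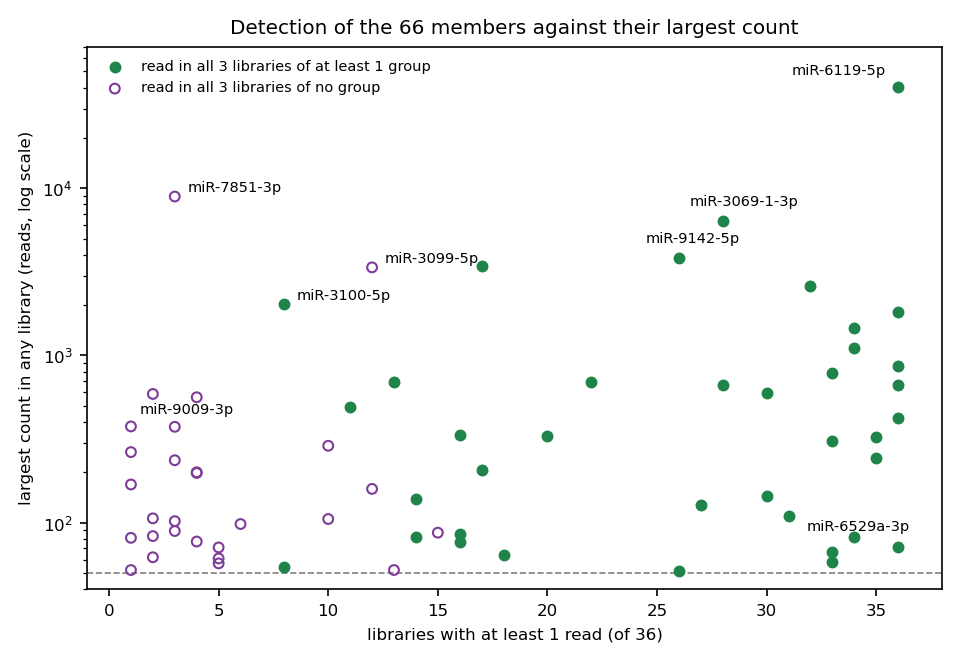
Each point is 1 of the 66 members, placed by the number of libraries with at least 1 read and by its largest count on a log scale, with the dashed line at the minimum of 50. Filled points were read in all 3 libraries of at least 1 group (38 members) and open points in all 3 of no group (28 members), among them miR-7851-3p with 8924 reads in high-altitude liver 1.

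Other classes passed through the same count minimum of 50 were read more widely, with 1 exception. The 358 goat-listed miRNAs had a median of 36 libraries read, and 97.8% were read in all 3 libraries of at least 1 group. Among Conserved-class miRNAs numbered 1200 or lower the median was 19 libraries and the share 81.6% of 76, whereas among the members it was 57.6% of 66. The 111 miRNAs without any database match had a median of 11 libraries and a share of 59.5%. The 18 miRNAs in the left-out number ranges had a median of 24.5 libraries and a share of 72.2%. These classes also differ in level, with a median largest count of 202.5 among the members and 2278.5 among the goat-listed miRNAs, so the shares are set side by side without a test.

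Just inside the minimum stood miR-6516-1-5p with a largest count of 58, miR-9269-5p with 57, miR-5004-3p with 54, miR-1413-3p and miR-3937-3p with 52, and miR-9787-3p with 51. Just outside stood miR-1976-3p, miR-2985-5p and miR-4524a-5p with 49, miR-7113-1-5p with 48, and miR-3069-1-5p and miR-9171-3p with 47. Detection on either side of the minimum was mixed, since miR-9787-3p and miR-1976-3p were each read in 26 libraries while miR-3937-3p was read in 1 and miR-4524a-5p in 3.

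Reads in all 3 libraries of at least 1 group were found for 38 members. All 12 groups were complete for the 6 members that were read in 36 libraries, which are both arms of miR-6119, miR-6529a and miR-7134. A further 16 members were complete in 6 to 11 groups. These were miR-1304-5p and miR-6123-5p in 11 groups, both arms of miR-9120, miR-3138-5p and miR-4775-3p in 10, and miR-8816-5p, miR-7659-5p, miR-9787-5p and both arms of miR-6516-1 in 9. miR-7846-3p and miR-1376-3p were complete in 8 groups, miR-9142-5p in 7, and miR-3069-1-3p and miR-1376-5p in 6.

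Completeness in 2 to 5 groups was seen for 9 members. miR-3926-1-5p and miR-8903-5p were complete in 5 groups, miR-5011-3p and miR-9787-3p in 4, miR-4524a-1-5p and miR-4802-3p in 3, and miR-4286-3p, miR-1245b-3p and miR-9142-3p in 2. The 7 members complete in 1 group were miR-3100-5p in high-altitude liver, miR-8893-5p and miR-3926-1-3p in high-altitude heart, miR-6838-3p in low-altitude liver, miR-3069-3p in high-altitude muscle, and miR-1842-1-3p and miR-5004-3p in low-altitude spleen. For miR-8893-5p, miR-3926-1-3p, miR-6838-3p and miR-1842-1-3p the complete group was not in the tissue with the highest mean level.

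The number of complete members per group ran from 16 in high-altitude spleen to 25 in low-altitude liver. In heart, 20 members were complete at high altitude and 21 at low altitude, and 16 of them in both populations. Kidney had 20 and 20 with 17 shared, liver 23 and 25 with 20 shared, lung 21 and 22 with 17 shared, and muscle 21 and 21 with 17 shared. Spleen had 16 at high altitude and 21 at low altitude with 12 shared, the lowest of the 6 tissues. In high-altitude spleen 1, miR-1304-5p, miR-7846-3p, miR-5011-3p, miR-9787-5p and both arms of miR-6516-1 had 0 reads while the other 2 high-altitude spleens had reads of each. Of the 792 pairs of a member and a group, 251 were complete, 258 were read in 1 or 2 libraries and 283 were not read.

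**Figure D2:**
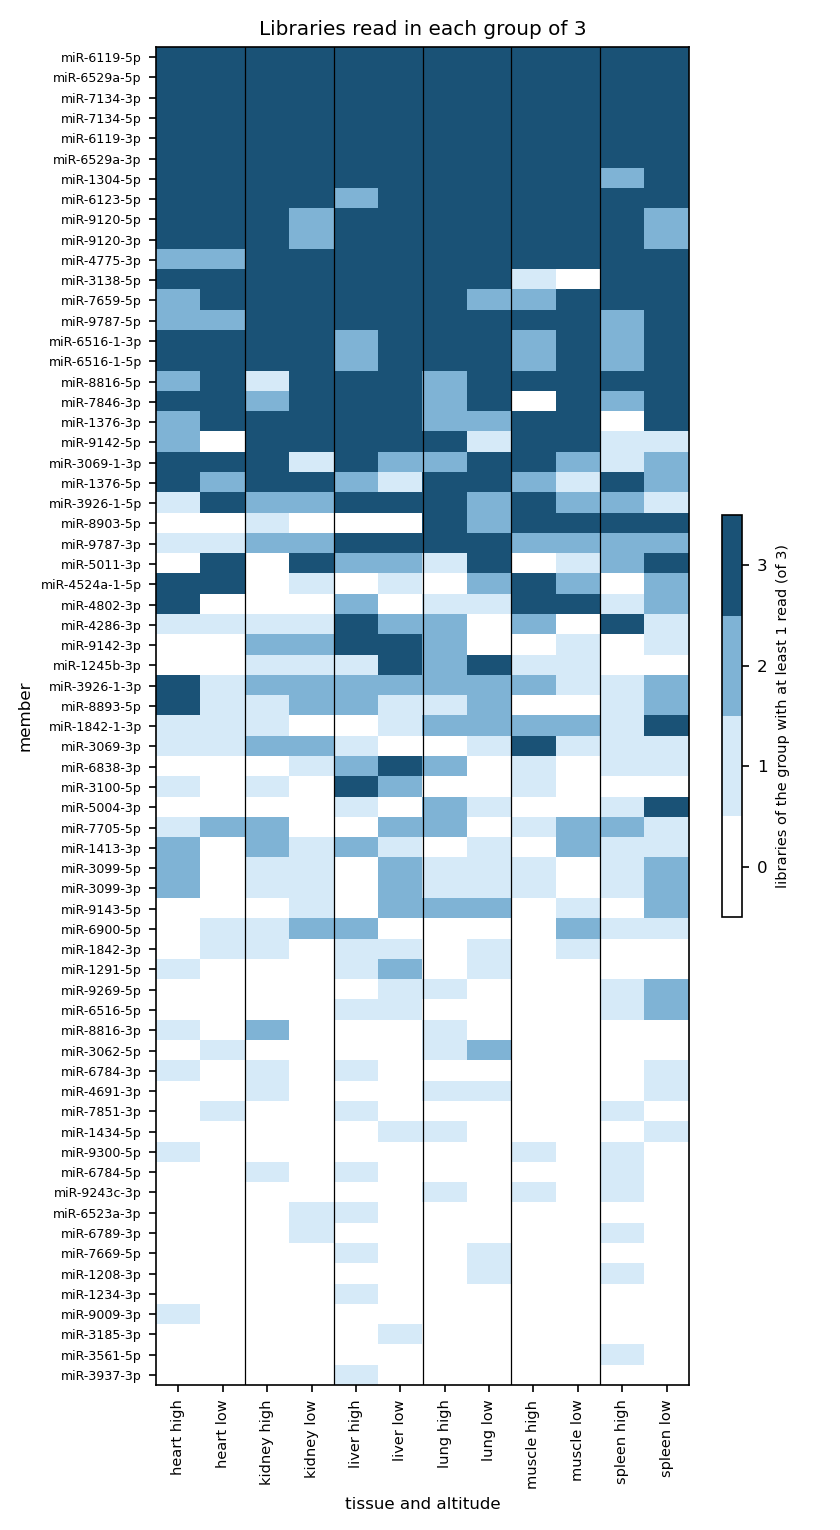
Each line of cells is 1 of the 66 members, ordered by completeness, columns are the 12 groups, and the shade gives how many of the 3 libraries had at least 1 read. The top 6 members are complete in all 12 groups, and the lower 28 are complete in none.

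Among the members read everywhere, miR-6119-5p was by far the most abundant, with a mean of 1515 RPM over the 36 libraries. Its counts in spleen were 22954, 24573 and 30803 in the high-altitude goats and 27718, 8543 and 12543 in the low-altitude goats, and in kidney 6214, 9232 and 5626 against 3855, 6805 and 6751. Spleen with 2260 ± 861 RPM (SD, n = 6), muscle with 2209 ± 678 RPM and heart with 1882 ± 671 RPM had the highest mean levels and overlapped one another, and kidney had the lowest with 617 ± 192 RPM. Its 3p arm was also highest in spleen, 34.4 ± 20.9 RPM, and ran there from 57 to 669 reads.

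miR-6529a-5p followed with a mean of 58.9 RPM over the 36 libraries and counts from 87 in low-altitude kidney 1 to 1827 in high-altitude heart 1. Its tissue means stayed close together, from 47.9 ± 21.998 RPM in liver to 81.7 ± 55.0 RPM in heart (SD, n = 6). The 3p arm was read in every library at 2 to 24 reads, apart from 71 in high-altitude muscle 2. miR-7134-3p had 63.8 ± 10.5 RPM in spleen and 16.8 ± 12.05 RPM in kidney, and its 5p arm ran more evenly from 11.98 ± 4.14 RPM in kidney to 22.4 ± 5.603 RPM in heart.

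Both arms of miR-9120 were read in 34 libraries and were 0 in the same pair, low-altitude kidney 2 and low-altitude spleen 2. In the other kidney libraries miR-9120-5p had 376, 668 and 330 reads in the high-altitude goats, and the 0 stood beside 605 and 1388 reads in the other low-altitude kidneys. Lung had the highest means for both arms, 81.6 ± 38.1 RPM for 5p and 71.2 ± 32.8 RPM for 3p (SD, n = 6), and muscle the lowest, 11.98 ± 6.19 RPM and 10.7 ± 5.51 RPM.

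Of the members, 32 had at least 1 group in which a library had 0 reads beside another with 100 or more, and this occurred in 72 member and group pairs. The share was 48.5% of members, against 14.8% of the goat-listed miRNAs, 35.5% of Conserved-class miRNAs numbered 1200 or lower, 27.8% of the left-out number ranges, 53.2% of those without a database match and 28.0% over all 629 miRNAs with a largest count of at least 50. The deposited counts do not show how reads were assigned, so a 0 here means that no read was listed under that name, and names of other precursors were not searched for the missing reads. With all listed names of the same precursor summed, miR-3099 was read in 13 libraries in place of 12, miR-4286 in 20 in place of 17, miR-5011 in 21 in place of 20 and miR-7851 in 7 in place of 3. The added names held 3, 14, 8 and 9 reads. miR-9120 stayed at 34, and miR-8816 went from 32 for its 5p arm to 36. Larger gains included miR-1245b with 20 in place of 13, miR-1842 with 24 in place of 16 for miR-1842-1-3p, and miR-3926 with 35 in place of 22 for miR-3926-1-3p. miR-1234 and miR-3561, each with a member read in 1 library, were read in 3 and 2. miR-1291, counting a goat-listed name, was read in 8 in place of 5. Floors and lower bounds of folds hold only where no read was listed under another name. miR-3099-5p had a 0 beside 100 or more reads in 9 groups. It was read in 12 libraries with 706 to 3363 reads in each and in none of the other 24, as in liver, where the counts were 0, 0 and 0 in the high-altitude goats and 2567, 0 and 3363 in the low-altitude goats. None of the 6 libraries of high-altitude goat 2 had a read of it, whereas high-altitude goat 3 had reads in 4 tissues.

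miR-4286-3p was read in 17 libraries and showed 0 beside 100 or more in 8 groups. In liver its counts were 23, 3435 and 1861 at high altitude against 0, 1419 and 2919 at low altitude, and in spleen 8, 364 and 1481 against 0, 0 and 614. In muscle the counts were 266, 0 and 430 against 0, 0 and 0, and in lung 0, 30 and 215 against 0, 0 and 0. In the altitude comparison described below, DESeq2 called the muscle difference at an adjusted p of 0.0265, and edgeR's quasi-likelihood test did not. In heart and kidney, 1 library of each population had reads. Over all tissues, miR-4286-3p was read in 12 of the 18 high-altitude libraries and in 5 of the 18 low-altitude libraries. Both populations thus held libraries with no read and libraries among its highest, 3435 and 2919 reads.

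The 5 members read in 1 library were miR-9009-3p with 376 reads in high-altitude heart 2, miR-1234-3p with 264 and miR-3937-3p with 52 in high-altitude liver 1, miR-3185-3p with 169 in low-altitude liver 2 and miR-3561-5p with 81 in high-altitude spleen 1. They were named after their values were seen. High-altitude liver 1 had the largest count of 8 members, 7 of which were read in 5 or fewer libraries, and these 7 summed to 10172 reads there. Most of that sum was miR-7851-3p, with 8924 reads in that library, 1668 in high-altitude spleen 3, 299 in low-altitude heart 3 and 0 in the other 33. In low-altitude lung 2, 8 members also had their largest count, none of them read in 5 or fewer libraries.

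Tissue preference was measured by the tissue specificity index (TSI) on mean RPM per tissue, which is 0 for equal levels in the 6 tissues and 1 for reads in a single tissue, with values over 0.85 called tissue-specific. The median TSI of the members was 0.822, and 31 were over 0.85. This was 47.0% of members, against 20.1% of the goat-listed miRNAs, 52.6% of Conserved-class miRNAs numbered 1200 or lower, 33.3% of the left-out number ranges, 58.6% of those without a match and 34.0% over all 629. The highest mean level was in liver for 23 members, spleen for 18, lung for 10, heart for 7, muscle for 6 and kidney for 2. In 18 of the 31 tissue-specific members, most of the RPM came from 1 library, and 18 were complete in no group, so that a high index here often marks a single library. The remaining 13 were complete in at least 1 group. On log2 RPM, miR-7846-3p, miR-4286-3p, miR-7659-5p, miR-3069-1-3p, miR-8903-5p, miR-3926-1-3p, miR-8893-5p and miR-6838-3p of these 13 fell below 0.85, with 0.544 to 0.837.

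Liver held 5 of those 13. miR-9142-5p had 2057, 1655 and 2846 reads in the high-altitude livers and 2734, 3835 and 1908 in the low-altitude livers. Outside liver its count was at most 46, except for 328 in low-altitude kidney 2, so that no library of another tissue overlapped liver. The mean was 305.6 ± 125.5 RPM in liver (SD, n = 6), 49.9-fold that in kidney, the next tissue. Low-altitude kidney 2, at 29.1 RPM, carried most of the kidney mean, and the medians were 286.1 RPM in liver and 1.04 RPM in kidney. The TSI of miR-9142-5p was 0.995. Its 3p arm followed the same pattern at a lower level, with 138, 43 and 98 reads against 111, 122 and 61 in liver, at most 10 elsewhere and a TSI of 0.994.

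miR-3100-5p was also a liver miRNA in these libraries, with 899, 2035 and 331 reads at high altitude against 349, 197 and 0 at low altitude. Outside liver it was read only in high-altitude goat 3, with 19 reads in heart, 18 in kidney and 12 in muscle. miR-7846-3p had 54, 87 and 49 reads in the high-altitude livers and 142, 467 and 598 in the low-altitude livers, and its mean of 29.2 ± 30.7 RPM in liver was 3.53-fold that in spleen. The last of the 5, miR-4286-3p, had 188 ± 161 RPM in liver (SD, n = 6) with the missing library described above, and a TSI of 0.888.

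In lung, miR-7659-5p had 456, 782 and 387 reads at high altitude against 294, 466 and 0 at low altitude, while heart, the next tissue, ran from 0 to 193. Its TSI was 0.893. miR-1245b-3p had 27, 4 and 0 reads in the high-altitude lungs and 4, 698 and 90 in the low-altitude lungs, and 66.3% of its RPM lay in low-altitude lung 2. Without low-altitude goat 2 its TSI went from 0.947 to 0.817. For miR-3926-1-3p the same goat carried more, since 698 of its reads were in low-altitude lung 2 and its TSI was 0.974 with that goat and 0.548 without it. miR-1376-5p, whose TSI of 0.841 missed the threshold, had 4, 123 and 8 reads against 11, 668 and 2 in lung, and its TSI ran from 0.510 without low-altitude goat 2 to 0.901 without low-altitude goat 1, with 0.860 without high-altitude goat 1, 0.851 without high-altitude goat 3 and 0.853 without low-altitude goat 3.

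Heart was the leading tissue of miR-3069-1-3p, with 179, 83 and 37 reads at high altitude against 6392, 690 and 2208 at low altitude. The tissues overlapped, since the high-altitude kidneys with 307, 443 and 330 reads exceeded the high-altitude hearts and low-altitude liver 3 with 1353 reads exceeded low-altitude heart 2. The TSI was 0.887 and went to 0.707 without low-altitude goat 1. In spleen, miR-8903-5p was read in all 6 libraries with 31, 22 and 24 reads at high altitude against 64, 19 and 29 at low altitude. It had 0 reads in every heart and liver library and 7 to 21 in muscle, with a TSI of 0.900.

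The other tissue-specific spleen members with a complete group were miR-8893-5p, with 133, 0 and 0 reads against 0, 213 and 334 in spleen, and miR-5004-3p, with 36, 0 and 0 against 27, 26 and 54. In muscle, miR-6838-3p rested on 490 reads in high-altitude muscle 2, with 0 in the other 5 muscle libraries. No kidney member exceeded 0.85 in TSI.

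A test of any difference among the 6 tissues, made within goats with edgeR's quasi-likelihood test and Benjamini-Hochberg adjustment over 1391 miRNAs, called 19 of 66 members at an adjusted p under 0.05, 28.8% beside 34.2% of all miRNAs. Since the largest count over the same libraries chose the members, nothing is read from this share. The same holds for the adjusted p of called members that reach 50 reads in 1 tissue alone, because those counts let them in. They are 6 of the 19, miR-3100-5p, miR-9142-3p and miR-1291-5p in liver, miR-5004-3p and miR-8903-5p in spleen and miR-3062-5p in lung, and their counts are given as a description. miR-9142-5p, miR-3138-5p and miR-1245b-3p reached 50 in 2 tissues, and in each of them 1 of the 2 tissues had 1 such library. Their calls are bound to the minimum in nearly the same way and are not read either. miR-6119-5p, at 50 or more in all 36 libraries, had an adjusted p of 4.94e-07. Without goat as a block in the fit the count was 33 of 66, beside 44.5% of all miRNAs. Of the 10 calls of members at 50 or more in 3 to 6 tissues, leaving out each goat in turn kept 6. These were both arms of miR-6119, miR-6123-5p, miR-7134-3p, miR-7846-3p and miR-7659-5p. DESeq2's likelihood ratio test called 17 of 66 members, beside 33.1% of all miRNAs, and shared 14 of the 19 calls. The calls of miR-3100-5p, miR-5004-3p, miR-3062-5p, miR-1291-5p and miR-4524a-1-5p were lost there.

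miR-3138-5p and miR-6123-5p, added to the named members after their values were seen, were moderate in TSI. miR-3138-5p had 64, 44 and 37 reads against 109, 72 and 62 in liver and was nearly missing from muscle, with 2 reads in high-altitude muscle 3 and 0 in the other 5. miR-6123-5p was lowest in liver, with 0, 17 and 11 reads against 21, 31 and 16, and highest in heart, with 153, 135 and 148 against 135, 124 and 245, so heart and liver did not overlap.

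The other 4 of these 10 calls were each lost without at least 1 of the goats. For miR-6529a-5p the adjusted p was 0.00671, and it was 0.0821 without high-altitude goat 1 and 0.0670 without low-altitude goat 1, within a range of 0.000974 to 0.826 whose upper end came from library totals without further normalization. For miR-7134-5p it was 0.00538, with 0.0565 without low-altitude goat 1 and 0.0712 without low-altitude goat 2, and 0.363 with library totals alone at the upper end of a range from 4.70e-06. For miR-3069-1-3p it was 0.0178, with 0.0581 without high-altitude goat 1, 0.0654 without high-altitude goat 3 and 0.0600 without low-altitude goat 1, in a range of 0.00507 to 0.0654.

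For miR-4524a-1-5p, a sparse member, it was 0.0349, with 0.412, 0.423 and 0.109 without high-altitude goats 1, 2 and 3, in a range up to 0.423. Among the 6 called members that reach 50 reads in 1 tissue alone, miR-5004-3p, miR-3062-5p and miR-1291-5p were named after their values were seen. miR-3062-5p was read in lung with 0, 198 and 0 against 0, 152 and 126 and otherwise with 4 reads in low-altitude heart 3. miR-1291-5p was read in liver with 26, 0 and 0 against 0, 55 and 71, and elsewhere its count was at most 2.

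miR-9120-5p and miR-9120-3p were not called, with adjusted p of 0.526 and 0.547. Without low-altitude goat 2, whose kidney and spleen libraries had the 0 counts, the values were 1.10e-05 and 6.03e-05, the lowest in ranges that reached 0.736 and 0.766. miR-8816-5p at 0.134, miR-6529a-3p at 0.176, miR-4286-3p at 0.306, miR-7851-3p at 0.347, miR-1376-5p at 0.776 and miR-3099-5p at 0.964 were not called either. Of these, miR-8816-5p passed with DESeq2 at 0.0401 in a range up to 0.346, and miR-7851-3p passed without goat as a block at 0.0155 in a range up to 0.974. The adjusted p of miR-6529a-3p was 0.0366 without the block, in a range up to 0.803. That value is not read, because miR-6529a-3p reached 50 reads in 1 library alone, with 71 in high-altitude muscle 2. The sum of both arms, 98.5% of it reads of the called 5p arm, passed at 0.0111 and is not a result for the 3p arm.

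**Figure D3:**
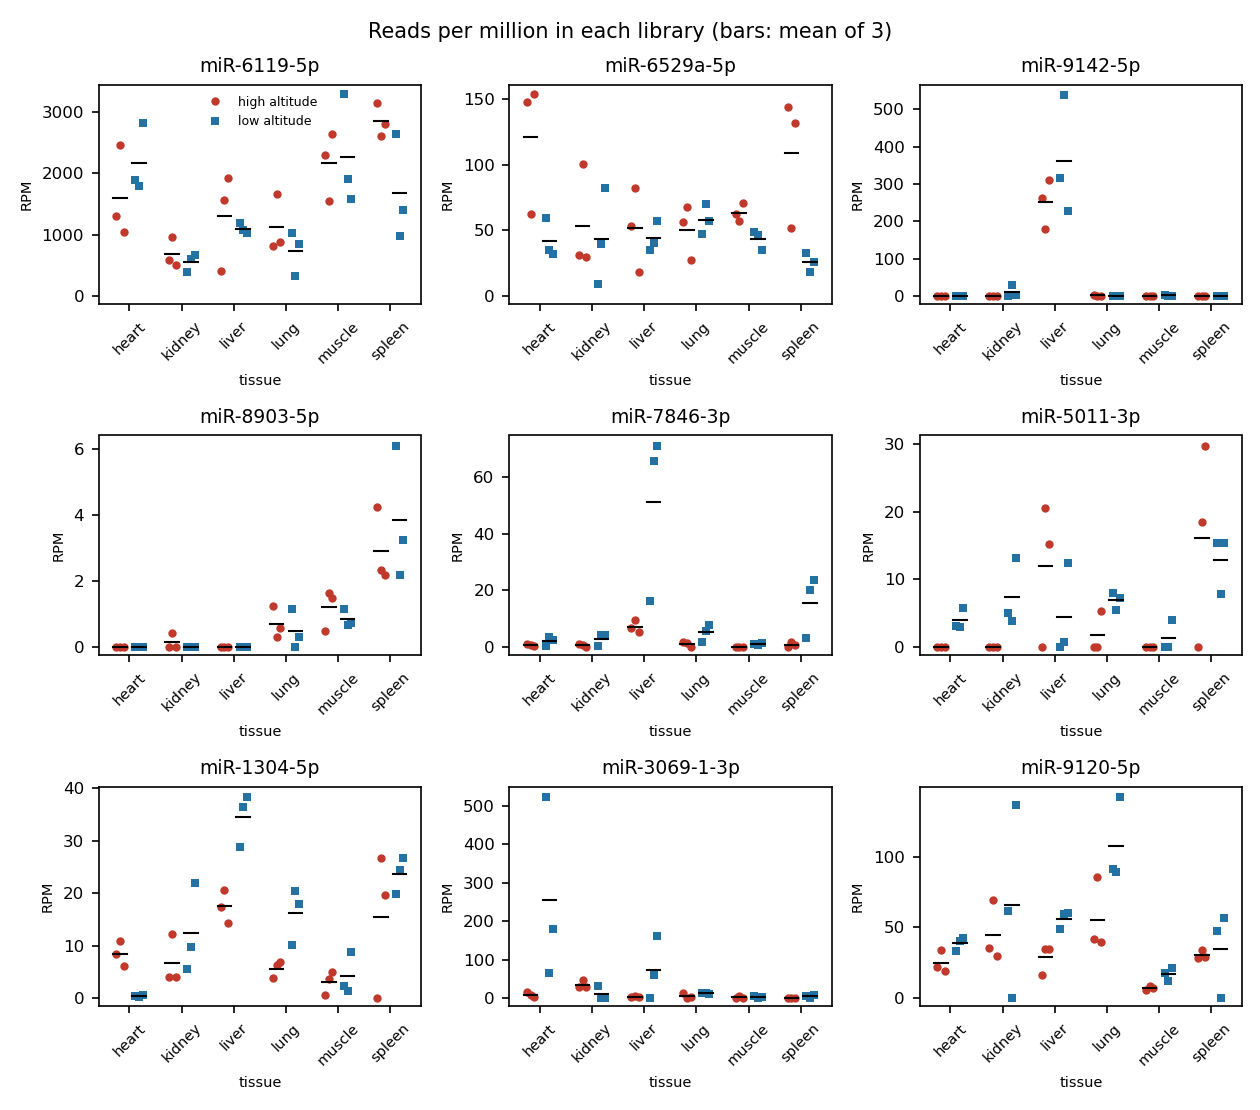
RPM of 9 members in each of the 36 libraries, by tissue, with circles for high altitude, squares for low altitude and bars for the mean of 3 libraries. miR-9142-5p had at least 179.8 RPM in every liver library and at most 29.1 RPM elsewhere, and the high-altitude libraries of miR-1304-5p lie above the others in heart and below them in liver and lung, where its altitude differences were not called.

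High altitude was compared with low altitude within each tissue to find miRNAs whose level differed between the populations. A call by edgeR's quasi-likelihood test needed a log2 fold change of 1.5 or more in either direction and an adjusted p under 0.05. By this rule 0 of 66 members were called in heart, kidney, liver and lung, where 0% of all miRNAs were called. In muscle 0 of 66 members were called beside 0.0719% of all miRNAs, and in spleen 0 of 66 beside 0.144%. At an unadjusted p under 0.05 the count was 30 of 396 member and tissue pairs, beside 5.32% of all pairs, with 13 higher at high altitude and 17 higher at low altitude. The edgeR exact test called 5 of 396 member pairs beside 0.335% of all pairs, and the DESeq2 Wald test 16 of 396 beside 2.14%. The 3 against 3 libraries did not overlap in 36 of 396 member and tissue pairs, beside 8.75% of all pairs. The minimum also bears on these comparisons. Of the members, 30 reached 50 reads in 1 population alone, 18 at high altitude and 12 at low altitude, and for them a difference in that direction is bound to the selection. Their altitude differences are not read, which concerns 2 of the 16 DESeq2 calls and 0 of the 5 exact test calls, and the shares are set side by side without a conclusion. The lowest adjusted p of a member was 0.141. Leaving out a goat gave at most 1 call, for miR-3099-5p in heart without high-altitude goat 2, whose heart library had 0 reads beside 1724 and 2108. The DESeq2 calls included miR-3099-5p in heart (log2 fold change 12.6, adjusted p 0.0172) and, with the opposite sign, in liver (-13.3, 0.0106). They also included miR-3099-3p in heart (8.34, 0.00787). In each of these pairs the population with reads also held a library with 0.

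The lowest value belonged to miR-1304-5p in heart. It had 104, 134 and 73 reads in the high-altitude hearts and 4, 3 and 7 in the low-altitude hearts, and all 3 high-altitude libraries lay above all 3 low-altitude libraries. The means were 8.47 ± 2.31 and 0.391 ± 0.154 RPM (SD, n = 3), and the fitted log2 fold change was 4.27 with a standard error of 0.558 and an adjusted p of 0.141. Over the alternatives the adjusted p ran from 3.19e-08 with DESeq2 to 0.578. It passed the threshold in the exact test at 0.000121 and with miRNAs of low counts removed at 0.0284.

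In liver and lung the order was the other way round. miR-1304-5p had 137, 190 and 132 reads in the high-altitude livers and 251, 259 and 323 in the low-altitude livers, a log2 fold change of -0.88 with a standard error of 0.466 and an adjusted p of 0.726. In lung it had 36, 65 and 70 against 98, 222 and 183, and again the populations did not overlap. There the log2 fold change was -1.23 with a standard error of 0.617 and an adjusted p of 0.832. In kidney 42, 117 and 44 reads stood against 55, 109 and 223 and overlapped, and the log2 fold change was -0.85 with a standard error of 0.464 and an adjusted p of 0.959. Whether the altitude difference differed between tissues was tested as an interaction within goats, with the same edgeR test, which called 0 of 66 members beside 0.144% of all miRNAs. At an unadjusted p under 0.05 it counted 6 of 66 members, beside 6.61% of all miRNAs, and DESeq2's likelihood ratio test called 2, miR-1304-5p and miR-9142-5p, beside 4.03%. The interaction of miR-1304-5p had an adjusted p of 0.389 and passed without high-altitude goat 1 at 0.0455, in a range over alternatives of 0.00169 to 1.0.

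miR-3069-1-3p in heart, with the counts given above, had 8.10 ± 5.79 RPM at high altitude and 255.4 ± 239.1 RPM at low altitude (SD, n = 3). The populations did not overlap, and the log2 fold change was -5.19 with a standard error of 1.08 and an adjusted p of 0.237, in a range of 8.49e-08 to 0.771 that passed with the exact test and DESeq2. In liver it had 21, 51 and 28 reads against 0, 417 and 1353, so that the low-altitude livers lay on both sides of the high-altitude livers. That log2 fold change was -4.23 with a standard error of 2.0 and an adjusted p of 0.726. In kidney the order differed, with 307, 443 and 330 reads against 314, 0 and 0.

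miR-6529a-5p, read in all 36 libraries, was higher at high altitude without overlap in 3 tissues. In spleen it had 1056, 489 and 1452 reads at high altitude against 344, 160 and 231 at low altitude, or 109.4 ± 50.3 and 25.6 ± 7.17 RPM (SD, n = 3). The log2 fold change was 2.10 with a standard error of 0.568 and an adjusted p of 0.729, and DESeq2 gave 0.0148 in a range that reached 1.0. In heart the counts were 1827, 770 and 1812 against 727, 375 and 398, with a log2 fold change of 1.30 with a standard error of 0.484 and an adjusted p of 0.675. In muscle 896, 732 and 903 reads stood against 599, 631 and 436. In kidney, liver and lung the populations overlapped in RPM.

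miR-7846-3p had the opposite direction, with the low-altitude libraries above the high-altitude libraries in liver, lung, muscle and spleen. The liver counts given above correspond to 7.22 ± 2.07 RPM at high altitude and 51.1 ± 30.2 RPM at low altitude (SD, n = 3), a log2 fold change of -2.72 with a standard error of 0.675 and an adjusted p of 0.431. In spleen it had 0, 16 and 9 reads against 32, 176 and 213, with a log2 fold change of -4.39 with a standard error of 1.47 and an adjusted p of 0.729. DESeq2 gave 0.00280 for liver and 0.0274 for spleen, the lowest in ranges that reached 1.0. In lung the counts were 17, 16 and 0 against 18, 63 and 79. In heart, 12, 9 and 5 reads against 4, 38 and 29 overlapped, as did kidney with 11, 8 and 0 against 3, 49 and 42.

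Reads in all 3 libraries of a population and 0 in all 3 of the other were found in 5 of 396 member and tissue pairs, beside 0.791% of all pairs. Of these 5, 4 were read at low altitude alone and 1 at high altitude alone. miR-5011-3p had 0, 0 and 0 reads in the high-altitude kidneys against 50, 43 and 133 in the low-altitude kidneys, and 0, 0 and 0 against 38, 32 and 72 in heart. If each 0 allows 3 reads per library, it was at least 25.6-fold higher at low altitude in kidney and at least 16.1-fold higher in heart, while its fitted fold changes depend on the prior count. The adjusted p was 0.384 in kidney and 0.237 in heart, and DESeq2 gave 2.50e-06 and 1.88e-06, the lowest in ranges that reached 1.0 and 0.578. The edgeR exact test also passed, at 2.36e-05 in kidney and 2.22e-05 in heart.

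In spleen the same miRNA was read in both populations, with 0, 175 and 328 reads against 162, 68 and 138, and in liver with 0, 190 and 139 against 0, 5 and 105. In lung it had 0, 0 and 55 reads against 77, 60 and 74, without overlap, and in muscle 0, 0 and 0 against 0, 0 and 50. It was read in 5 of the 18 high-altitude libraries and 15 of the 18 low-altitude libraries, and high-altitude goat 1 had none in any tissue. The high-altitude libraries with reads were thus 2 spleens, 2 livers and 1 lung, of goats 2 and 3.

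The other 3 pairs had smaller counts. miR-1376-3p in spleen had 0, 0 and 0 reads at high altitude against 32, 31 and 2 at low altitude. The 5p arm had 4, 4 and 8 reads in those high-altitude spleens, so no lower bound of a fold is given. miR-1376-3p reached 50 in 2 libraries, both at low altitude, 65 reads in liver 2 and 145 in lung 2. No test of it and no altitude difference is read. miR-7846-3p in muscle had 0, 0 and 0 against 13, 9 and 18, at least 4.69-fold higher at low altitude, with an adjusted p of 0.675 that reached 0.00746 with DESeq2 in a range up to 1.0. miR-4802-3p in heart was the pair read at high altitude, with 14, 14 and 8 reads against 0, 0 and 0, at least 3.84-fold higher. The 5p arm of this precursor had 30 reads in 5 libraries of the series, so the bound covers the 3p arm alone. The fitted log2 fold change of miR-4802-3p in heart was 6.50, in a range over alternatives of 2.65 to 6.71. Its adjusted p was 0.384, and the exact test with 0.00910 and DESeq2 with 0.0450 passed, in a range of 0.00910 to 0.986. In muscle it was read in both populations, with 5, 76 and 5 against 69, 5 and 4.

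In muscle, miR-4524a-1-5p had 82, 165 and 3 reads at high altitude against 0, 1 and 1 at low altitude. The 2 large counts carried its log2 fold change of 6.62, with a standard error of 1.67 and an adjusted p of 0.675, which was 0.00620 with DESeq2 in a range up to 1.0. In the other tissues its larger counts came from low-altitude goats, with 91 in kidney 2, 205 in lung 2 and 203 in spleen 2 of the same goat and 81 in lung 1. miR-9120-5p in muscle had 78, 109 and 91 reads against 215, 165 and 260, and all low-altitude libraries lay above. Its log2 fold change was -1.14 with a standard error of 0.451 and an adjusted p of 0.746. The 3p arm in muscle, with 74, 143 and 57 against 155, 154 and 241, did not overlap in RPM either. In liver, the low-altitude libraries also lay above for both arms, with 129, 321 and 319 reads against 423, 421 and 508 for 5p (log2 fold change -0.85, adjusted p 0.726) and 181, 430 and 299 against 442, 551 and 429 for 3p (log2 fold change -0.72, adjusted p 0.726). In lung the 5p counts of 400, 883 and 403 against 887, 970 and 1452 did not overlap in RPM, and the log2 fold change was -0.85 with a standard error of 0.377 and an adjusted p of 0.832.

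miR-8816-5p was lower at high altitude in spleen, with 217, 291 and 628 reads against 701, 1439 and 941, without overlap in RPM. The log2 fold change was -1.65 with a standard error of 0.559 and an adjusted p of 0.729. In muscle 180, 415 and 282 reads stood against 820, 747 and 355, with overlap, a log2 fold change of -1.17 with a standard error of 0.548 and an adjusted p of 0.746.

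The remaining named pairs had few reads or rested on 1 library. miR-9142-5p in kidney had 9, 6 and 12 reads against 10, 328 and 41, with a log2 fold change of -3.34 with a standard error of 1.21 and an adjusted p of 0.959, and overlapped in RPM. In lung it had 20, 14 and 14 against 0, 0 and 5, with a log2 fold change of 3.46 with a standard error of 1.70 and an adjusted p of 0.832. miR-1245b-3p in lung, with the counts given above, overlapped, and it reached 50 at low altitude alone. miR-1376-3p in liver had 9, 13 and 3 reads against 40, 65 and 19, where the 65 is 1 of the 2 counts that let it in, so the difference is not read. miR-6119-3p in kidney had 85, 289 and 79 against 32, 69 and 142, which overlapped, with an adjusted p of 0.959.

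Both arms of the same hairpin were members for 12 precursors. In 3 of them the arms were read together in all 36 libraries, with miR-6119-5p exceeding its 3p arm 96.7-fold in summed counts, miR-6529a-5p exceeding its 3p arm 65.3-fold, and miR-7134-3p exceeding its 5p arm with 13404 against 6949 reads. The arms of miR-9120 were nearly equal, with 15537 reads of 5p and 13915 of 3p. Those of miR-3099 were read in the same 12 libraries, with 706 to 3363 reads of 5p and 18 to 159 of 3p, and both were 0 in the other 24. The arms of miR-6516-1 were 0 in the same 3 libraries. Other pairs were read together in part. Both arms of miR-1376 were read in 22 libraries and 1 arm alone in 6 and 8, and those of miR-3926-1 in 17 with 1 arm alone in 10 and 5. The arms of miR-9142 were read together in 14 libraries with 5p alone in 12, those of miR-9787 in 26 with 5p alone in 7, and those of miR-6784 in 2 with 1 arm alone in 1 and 2.

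Of these 12 precursors, miR-8816 was the only one whose arms were never read in the same library. Its 5p arm was read in 32 libraries and its 3p arm in the other 4, and no library had both. The 3p counts were 487 in high-altitude heart 1, 219 in high-altitude kidney 1, 458 in high-altitude kidney 3 and 562 in high-altitude lung 1. In those 4 libraries the summed level of both arms was 20.5 to 58.2 RPM, within the range of the 32 libraries with the 5p arm, 1.02 to 311.3 RPM. Whether this pattern lies in the samples or in how reads were assigned to the arms in the deposited counts cannot be told apart. The 5p arm of the 3 high-altitude lungs had 0, 461 and 152 reads and the 3p arm 562, 0 and 0, so that a comparison of either arm alone sets a 0 beside a library with reads of the other arm.

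**Figure D4:**
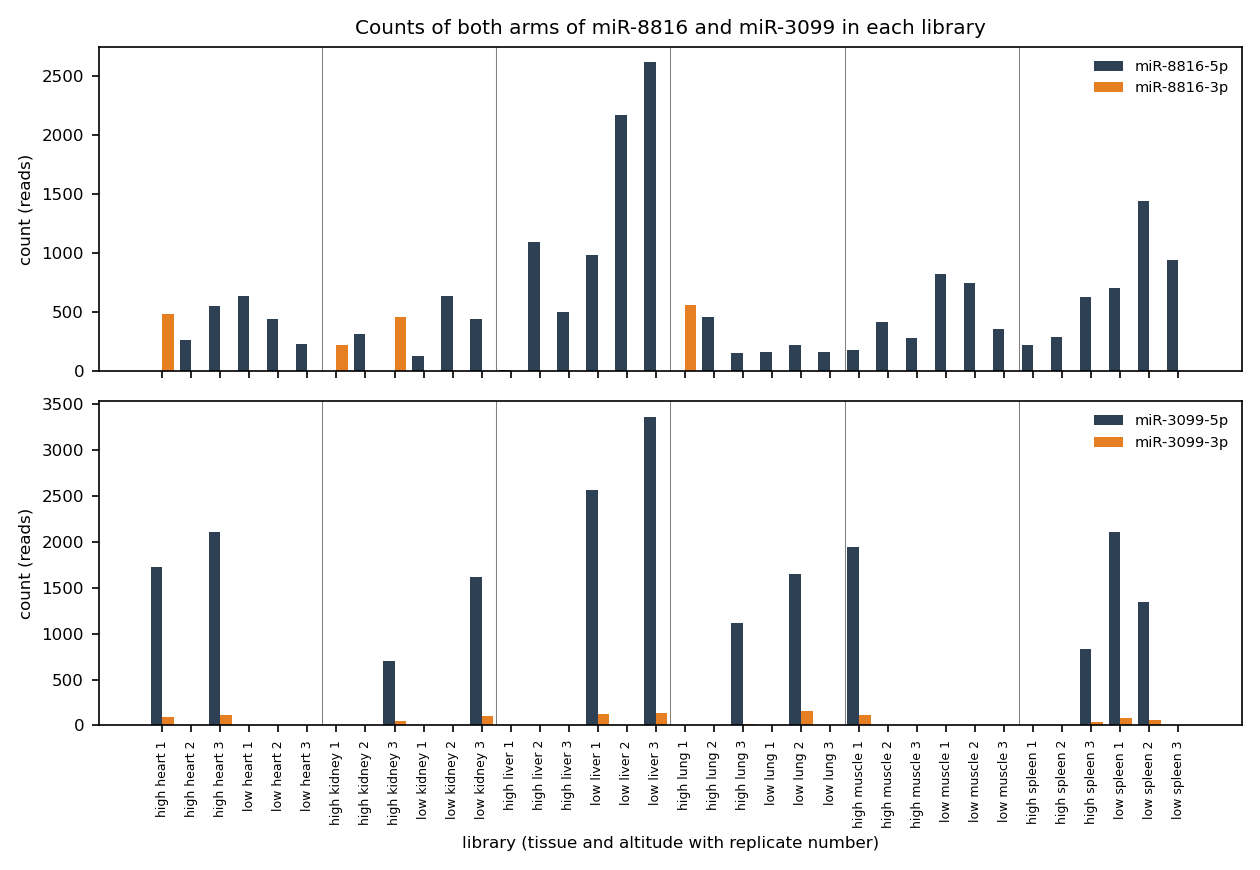
Bars give the counts of the 5p and 3p arms of miR-8816 (top) and miR-3099 (bottom) in each of the 36 libraries. The 3p arm of miR-8816 appears only in the 4 libraries without its 5p arm, while both arms of miR-3099 appear in the same 12 libraries.

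The study lists mature sequences with its PCR primers for 3 of the members. They are shown because these members carry the patterns of presence and absence between libraries and populations described above, with the seed (bases 2 to 8 from the 5′ end) in capitals and T written for U.
miR-3069-1-3p: aTTGGCACgtcttggaatgc
miR-3099-5p: cAGGCTAGgagaaatgattgga
miR-5011-3p: tATATATAcatacacaccatgt
The 3 seeds differ, so no seed is shared among them. miR-5011-3p, read in the hearts and kidneys of the low-altitude goats alone, is 22 bases long and 72.7% A and T, with a seed that alternates A and T. miR-3099-5p is 22 bases long with 54.5% A and T, and miR-3069-1-3p is 20 bases long with 50%.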

How the data were processed

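Small RNA libraries of 36 goat samples were read from the tables of raw counts that the authors deposited, 1 per library, each with 1391 mature miRNAs. The submitters' processing notes name CASAVA 1.8 and Bowtie, and the methods describe miRDeep2 with miRBase 21 and a filter of at least 3 reads in 1 library. Counts were divided by library totals (7108635 to 14407748) to give RPM. At this depth a count of 0 allows up to 3 reads, 0.208 to 0.422 RPM. Libraries were grouped by tissue and population from their labels.

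Tests used edgeR 4.0.16 (TMM normalization, quasi-likelihood F test) in R 4.3.3, on all 1391 miRNAs, with Benjamini-Hochberg adjustment. Altitude was compared within each tissue, 3 against 3 libraries. Tissue and the interaction of tissue and altitude were tested over 36 libraries with goat as a block. Tables and figures were made in Python 3.11.15 with pandas 2.3.3, numpy 2.4.6, scipy 1.17.1 and matplotlib 3.10.9. The code was tested on simulated data.

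The block comes from the numbers in the labels and from the methods, in which each goat gave 6 tissues. That a number stands for the same goat in every tissue is inferred from them. After group means were removed, libraries of a goat correlated with a mean r of 0.0104 to 0.153 across 15 tissue pairs (537 miRNAs, across genes).

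Alternatives were DESeq2 1.42.0, the edgeR exact test, other size factors, a filter on low counts (filterByExpr), summed arms, a single fit of 12 groups, other read minimums, the replicate number as a block and leaving out each goat.

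Members and lists were chosen with earlier results of these data known. Named members are the 10 with the highest mean RPM, those read in 36 libraries, the 3 with the smallest unadjusted p in each tissue among members read in at least 4 of its 6 libraries, up to 5 pairs read in all libraries of a population and none of the other, those with a listed sequence together with miR-4286-3p and miR-3099-3p, which the study names, and, in each tissue, the member with the highest TSI among those read in all its 6 libraries. No member had counts identical to another miRNA. Only the RefSeq name MIR1291 matched a member.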

Additional observations from a re-analysis of the deposited data

Results flagged for a closer look

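For miR-1304-5p, every high-altitude library lay above every low-altitude library in heart and below every one in liver and in lung. The log2 fold changes, high over low altitude, were 4.27 in heart, -0.88 in liver and -1.23 in lung, with adjusted p of 0.141, 0.726 and 0.832, and none was called. The opposite order between these 3 tissues was not tested pair by pair. The interaction over all 6 tissues had an adjusted p of 0.389 with edgeR's quasi-likelihood test, in a range over alternatives of 0.00169 to 1.0.

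For miR-4524a-1-5p, every low-altitude library lay above every high-altitude library in heart, with 4, 4 and 6 reads against 3, 1 and 2, and the order was opposite in muscle, with 0, 1 and 1 against 82, 165 and 3. The log2 fold changes were -1.38 in heart and 6.62 in muscle, with adjusted p of 0.797 and 0.675, and neither was called. The difference between heart and muscle was not tested on its own, and the interaction over 6 tissues had an adjusted p of 0.645, in a range of 0.0993 to 1.0. The counts in heart were at most 6 reads.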

How the results depend on the processing

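The altitude calls among members, 0 with edgeR's quasi-likelihood test, became 1 with filterByExpr, 5 with the edgeR exact test, 16 with DESeq2 and 1 in a single fit of 12 groups. Leaving out a goat gave 0 to 1. Over all miRNA and tissue pairs, filterByExpr called 0.686% of 2623, the single fit 0.647% and the fits without a goat 0 to 0.144%. The interaction calls, 0, became 2 with DESeq2 and 0 to 1 when a goat was left out. Over all miRNAs the interaction calls without a goat were 0 to 0.503%. Calls of a tissue difference, 19, were 14 to 17 without a goat, or 21.2 to 25.8% of members beside 27.7 to 31.1% of all miRNAs. With filterByExpr they were 16 of 41 members beside 71.8% of 593 miRNAs. With filterByExpr, 20 to 27 members were tested per tissue. The causes of the other shifts were not tested. Of 23 log2 fold changes followed through 318 alternatives, none was reversed, 300 stayed on the same side of the threshold and 18 became calls. These 23 were picked in the same data, for a small unadjusted p or for reads in 1 population alone. The lack of reversals is largely set by that choice and is not read as support.

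Without the goat block, 33 members were called for tissue, including all 19, and 0 for interaction. With the replicate number as a block shared by the populations, altitude calls stayed at 0, with 43 member pairs at an unadjusted p under 0.05 where the fit without it gave 30. The shares of all pairs were 4.19% and 5.32%, and the block changed no call of a member. Libraries with the same number correlated across populations at -0.431 to 0.411, and 8 of 18 correlated best with their own number. In heart the values were 0.411, 0.291 and 0.362, and in kidney -0.0559, -0.232 and -0.431. With 3 candidates per library, best matches also arise by chance, so the count is at most a hint from the data and not from the design.

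Members complete in a group, 38 of 66, numbered 37 at 3 reads per library, 30 at 10 reads and 41 to 43 with a goat left out. With arms and copies summed, 31 of 51 precursor names were complete. Tissue-specific members, 31 of 66, numbered 22 on log2 RPM, 23 on medians, 31 on TMM-scaled values and 29 to 34 without a goat. With arms summed, 28 of 51 precursor names were tissue-specific. A minimum largest count of 20 gave 118 members in place of 66, and 100 gave 44. Some sparse members passed under other tests at the same depth, among them miR-4802-3p in heart with the exact test and miR-7846-3p in muscle with DESeq2 and the single fit.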

Other observations

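miR-8816-3p was read in high-altitude libraries alone, 4 of 18, and miR-3099-5p in 6 libraries of each population. miR-4775-3p, outside the named members and chosen after its values were seen, was read in 34 libraries with at most 82 reads in each, and both of its libraries with 0 reads were hearts. miR-3069-3p, listed beside miR-3069-1-3p under the same number, was complete in high-altitude muscle with 82, 62 and 72 reads and had 0, 52 and 0 in low-altitude muscle. miR-1842-3p and miR-1842-1-3p were read in 6 and 16 libraries and shared none.

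Low-altitude goat 2 carried large counts of several members in lung, with 668 reads of miR-1376-5p, 698 of miR-1245b-3p and 698 of miR-3926-1-3p in the same library. The summed share of the members in library totals was 0.286 ± 0.0875% in spleen, 0.264 ± 0.0240% in liver and 0.0997 ± 0.0400% in kidney (SD, n = 6). Without miR-6119-5p the order of spleen and liver turned round, with 0.0600 ± 0.0186% in spleen, 0.145 ± 0.0444% in liver and 0.0380 ± 0.0238% in kidney. Muscle went from 0.247 ± 0.0673% with miR-6119-5p to 0.0264 ± 0.00542% without it, then the lowest of the 6 tissues.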
